A study of Mus musculus with 25 samples.

Results

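Pattern recognition receptors are germline-encoded proteins that detect molecules of microbes or of damaged cells. The genes described here were chosen by symbol, as every Toll-like receptor (Tlr), NOD-like receptor (Nlrp, Nlrc, Nod) and C-type lectin domain gene (Clec) whose symbol goes on with a digit. The rule found 67 of the 25006 genes in the table, of which 12 were Toll-like receptors, 24 NOD-like receptors and 31 C-type lectins. RNA-seq values came from 6 libraries of cells from E0771 tumours, a mouse mammary carcinoma line, in C57BL/6 mice, labelled as enriched for CD8+ T cells. The control group and the anti-CD73 group had 3 libraries each. CD73, encoded by Nt5e, is the cell-surface enzyme that makes adenosine from AMP, and the antibody against it was given every 3 days. What the control mice received, the age of the mice and whether each library came from its own animal are not given in the labels, so each p-value reflects only how these libraries vary, and part of that variation may be technical. A further 19 samples, of 25 in all, are cultured CD8+ T cells from spleen and were not analysed here.

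Toll-like receptors sit at the cell surface, where they bind microbial lipids and proteins, or in endosomes, where they bind nucleic acids, and most of them signal through the adaptor MyD88 to NF-kB. NOD-like receptors work in the cytosol: Nod1 and Nod2 sense fragments of bacterial cell wall, and others build inflammasomes, which activate caspase-1 and release interleukin-1 beta. Many C-type lectin receptors of myeloid cells bind sugars of fungi or ligands from dying cells and signal through the kinase Syk and the adaptor Card9, while others carry inhibitory motifs. In tumours these genes are known chiefly from macrophages, neutrophils and dendritic cells.

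T cell marker transcripts were scarce beside macrophage marker transcripts in these preparations, which are labelled as enriched for CD8+ T cells. The 12 measured of 13 T cell markers summed to 184 to 676 normalized counts in the controls and 338 to 675 after anti-CD73, against 11000 to 20430 and 18790 to 30690 for the 14 macrophage markers. These sums were not corrected for transcript length. In such bulk samples fewer cells of a type and less RNA per cell cannot be told apart. Libraries held 10180624 to 17161679 reads in genes. For the receptor genes, 1 control library (replicate 1) differed from its group. It lay above both other controls for 35 of the 38 receptor and lectin genes tested, against 45.1% of all 12262 genes tested, and it was the highest of all 6 libraries for 18 of the 38, against 30.7% of all genes. Erythroid markers summed to 31660 normalized counts in control replicate 1, to 242000 and 240300 in control replicates 2 and 3, and to 34530 to 127500 after anti-CD73. With erythroid genes left out and libraries rescaled, the median log2 difference of the 38 genes was 0.79 against 0.73, and limma again called 0. The main results are given with and without control replicate 1. That library was singled out because of these same receptor values, so calls made without it describe the other 5 libraries and are not independent evidence.

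Of the 67 genes, 57 had a read in some library and 10 had none, and 38 passed the filter of a mean of at least 10 normalized counts and were tested. Of these 38, 32 lay higher after anti-CD73 and 6 lower, whereas 50.5% of all tested genes lay higher and 49.5% lower. Their median log2 difference was 0.73, against 0.0039 over all tested genes. It was 0.86 for the 11 Toll-like receptors, 0.87 for the 11 NOD-like receptors and 0.47 for the 16 C-type lectins tested. Without control replicate 3 these medians were 0.40, 0.51 and 0.18, and without control replicate 2 that of the Toll-like receptors was 0.52. No receptor gene passed the test with all 6 libraries: limma called 0 of 38 at an adjusted p of 0.05 and 0.0% of all genes, with a smallest adjusted p of 0.169 among the 38. At an unadjusted p under 0.05, 8 of the 38 were higher and 0 lower, against 8.69% and 6.82% of all genes. The quasi-likelihood test of edgeR also called 0 of 38 (0.0% of all genes), and DESeq2 called 1, Tlr5, against 4.93% of all genes. DESeq2 gave no adjusted p for Clec7a, Clec9a, Nlrp1a and Tlr12, and its share is over the 12018 genes that had one.

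Without control replicate 1 the picture was different. Limma then called 24 of the 38 genes higher and 0 lower, against 11.9% and 10.3% of all genes (22.2% in either direction), and 34 of the 38 lay higher, with a median of 1.06. EdgeR then called 24 (22.0% of all genes) and DESeq2 23 (21.8%). By limma, called genes numbered 9 of 11 Toll-like receptors, 6 of 11 NOD-like receptors and 9 of 16 C-type lectins. The groups of all 6 libraries did not overlap for only 3 genes that were higher (11.5% of all genes) and 1 that was lower (12.0%), which is no more than the background. Without control replicate 1 they did not overlap for 29 higher genes (25.7% of all genes) and 1 lower (27.8%). The median of the 38 was 0.41 without control replicate 3. It was 0.41 by edgeR and 0.40 by DESeq2 with all 6 libraries. A fit with the description numbers of the samples as a block called 22 of the 38 (14.5% of all genes). In it control replicate 1 and anti-CD73 replicate 2 have no partner and do not bear on the difference. It thus also sets aside the library singled out above, leaves few libraries to measure variation, and is not independent evidence.

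**Figure D1:**
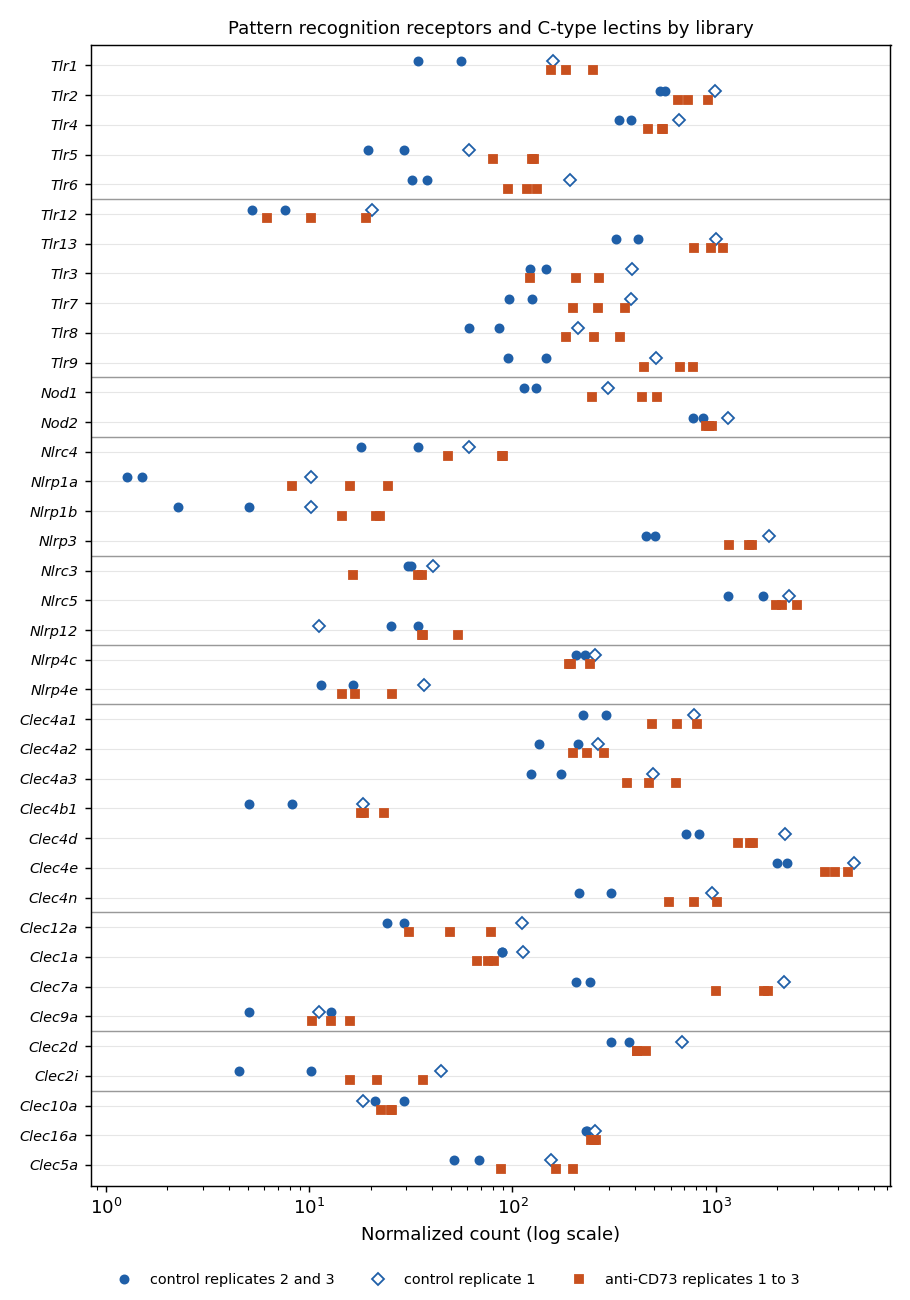
Normalized counts (log scale) of the 38 tested genes in each library, grouped by role from surface Toll-like receptors at the top to other lectins at the bottom. Filled circles are control replicates 2 and 3, open diamonds control replicate 1 and squares the 3 anti-CD73 libraries. The open diamond lies inside the range of the squares for 16 genes, above it for 18 and below it for 4.

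The bases before the transcription start were searched for short motifs of regulators of myeloid and inflammatory genes, as a description of the sequences. RefSeq promoter sequences (GRCm38.p6) were found for 54 of the 67 genes and for 32 of the 38 tested, and the 250 bases before each start were read on both strands. The PU.1 motif GAGGAAGT was present for 4 of the 32 genes (Nlrp1a, Nlrp1b, Nlrp4c and Tlr1), against 3.23% of all tested genes with a promoter. The interferon-stimulated response element (GAAA, any 2 bases, GAAA) was present for 3 (Clec2d, Clec4b1 and Tlr6), against 3.43%. The AP-1 motif TGACTCA was present for 1 (Tlr9, against 4.35%), the NF-kB motif (GGGA, any base, TTTCC) for 1 (Tlr3, against 0.491%) and the C/EBP motif TTGCGCAA for 1 (Clec12a, against 0.246%). None of these letter strings lay in the windows of Clec7a, Tlr5 or Nod1. A match describes the letters only.

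The windows shown are those of genes that were called without control replicate 1 and hold a match, since they let the neighbouring bases be compared. Capitals mark the motif, and each sequence runs 5′ to 3′ on the strand of its gene. The PU.1 matches start 83, 96 and 23 bases before the start of Nlrp1a, Nlrp1b and Tlr1. The first 4 stretches below lie within the annotated span of their gene and are cut to 30 bases.
Nlrp1a, chr11:71144769-71144798, minus strand: cccagtgttcaGAGGAAGTacatctgccgt
Nlrp1b, chr11:71230811-71230840, minus strand: cccagtgtttaGAGGAAGTgcatctgtgca
Tlr1, chr5:64933563-64933592, minus strand: attaaatgttgGAGGAAGTaggagcttgaa
Tlr6, chr5:64959260-64959289, minus strand: ctattctTTTCTCTTTCACTTTCtgtttga
Clec4b1, chr6:123049842-123049961, plus strand: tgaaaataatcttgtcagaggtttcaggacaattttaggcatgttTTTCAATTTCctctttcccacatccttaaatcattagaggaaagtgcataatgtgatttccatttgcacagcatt
Tlr9, chr9:106222478-106222597, plus strand: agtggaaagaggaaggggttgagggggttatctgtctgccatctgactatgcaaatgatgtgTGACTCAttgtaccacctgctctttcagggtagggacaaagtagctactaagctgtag
Nlrp1a and Nlrp1b share 92 of 133 aligned positions (69.2%) in the last 120 bases before the start, including the motif. Tlr6 holds 2 overlapping matches of the interferon-stimulated response element on the opposite strand, 116 and 110 bases before the start.

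Among the surface Toll-like receptors, Tlr5 had the largest log2 difference. Tlr5, the flagellin receptor (ENSMUSG00000079164; mm10 chromosome 1, 182954752 to 182976044), measured 60.9, 29.1 and 19.5 normalized counts in control replicates 1, 2 and 3 against 125, 128 and 80.2 in anti-CD73 replicates 1, 2 and 3, the order used for every gene below. All 3 anti-CD73 libraries lay above all 3 controls, which held for no other Toll-like receptor tested. The means were 36.5 ± 21.7 and 111 ± 26.7 (SD, n = 3 each), a log2 difference of 1.70 with a standard error (SE) of 0.42. Its adjusted p was 0.169 by limma and 0.016 by DESeq2, and 0.00279 by limma without control replicate 1.

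Tlr1, which pairs with Tlr2 to bind triacylated lipopeptides, measured 157, 55.8 and 34.4 in control libraries against 184, 250 and 155 in anti-CD73 libraries. Control replicate 1 reached the lowest anti-CD73 library, and the log2 difference was 1.50 (SE 0.51, adjusted p = 0.236), or 2.11 without that control (adjusted p = 0.00241). Tlr6, which pairs with Tlr2 to bind diacylated lipopeptides, measured 193, 38.0 and 32.2 in control libraries against 118, 132 and 94.6 in anti-CD73 libraries. Its highest library was thus a control, and its log2 difference was 0.87 (SE 0.63, adjusted p = 0.55), or 1.68 without that control, 0.52 without control replicate 2 and 0.40 without control replicate 3. Tlr1 and Tlr6 are close paralogs that lie next to each other on chromosome 5, and reads that match both may be split between them.

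The shared partner Tlr2 and the lipopolysaccharide receptor Tlr4 had the smallest log2 differences among the surface receptors. Tlr2 measured 996, 531 and 562 in control libraries against 729, 913 and 652 in anti-CD73 libraries, and Tlr4 at 660, 381 and 333 and at 546, 550 and 465. Control replicate 1 was the highest library for both genes. Their log2 differences were 0.18 (SE 0.26) and 0.24 (SE 0.25), or 0.47 (adjusted p = 0.0413) and 0.54 (adjusted p = 0.0154) without that control. Leaving out another library also moved these values: Tlr2 had 0.017 without control replicate 2, 0.058 without control replicate 3, 0.047 without anti-CD73 replicate 2 and 0.29 without anti-CD73 replicate 3, and Tlr4 had 0.15 and 0.047 without control replicates 2 and 3.

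Among the endosomal Toll-like receptors, Tlr9 and Tlr8 had the largest log2 differences and Tlr3 the smallest. Tlr9, the receptor for unmethylated CpG DNA (ENSMUSG00000045322; mm10 chromosome 9, 106222598 to 106226876), measured 511, 147 and 95.0 in control libraries against 670, 773 and 445 in anti-CD73 libraries. Control replicate 1 lay inside the anti-CD73 range, and the other controls lay far below it. The log2 difference was 1.67 (SE 0.57, adjusted p = 0.236) and 2.37 without that control (SE 0.25, adjusted p = 0.00154). Tlr8, on the X chromosome beside Tlr7, measured 210, 86.2 and 61.4 in control libraries against 251, 337 and 183 in anti-CD73 libraries. Its log2 difference was 1.26 (SE 0.45, adjusted p = 0.252), or 1.76 without control replicate 1 (adjusted p = 0.00339).

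Tlr7, a receptor for single-stranded RNA, measured 383, 125 and 95.8 in control libraries against 265, 357 and 198 in anti-CD73 libraries. Unlike its neighbour Tlr8, its highest library was control replicate 1, and its log2 difference was 0.67 (SE 0.50, adjusted p = 0.56), or 1.27 without it (adjusted p = 0.00776). Whether Tlr7 and Tlr8 differ in response was not tested. Tlr13, the mouse receptor for bacterial ribosomal RNA, measured 1010, 417 and 323 in control libraries against 951, 1086 and 784 in anti-CD73 libraries (log2 difference 0.86, SE 0.39, adjusted p = 0.349; 1.34 and 0.00201 without control replicate 1). Without control replicate 3, Tlr7 had 0.28 and Tlr13 0.52.

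Tlr3, which binds double-stranded RNA and signals through Ticam1 rather than MyD88, was the only Toll-like receptor tested with a difference below 0. It measured 387, 122 and 146 in control libraries against 206, 268 and 121 in anti-CD73 libraries, a log2 difference of -0.014 (SE 0.47, adjusted p = 0.992). The sign turned with TMM scaling (0.0062), with erythroid genes left out (0.055) and without control replicate 1 (0.50, adjusted p = 0.253), so no direction can be given. Tlr12 had a log2 difference of 0.17 (SE 0.60) from 6 to 20 reads per library, and its sign turned without control replicate 3 (-0.21) and without anti-CD73 replicate 2 (-0.22). Tlr11, a partner of Tlr12 in binding profilin, had 0 to 4 reads per library and was not tested.

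Of the peptidoglycan sensors, Nod1 had a log2 difference above 1 and Nod2 one near 0. Nod1 (ENSMUSG00000038058; mm10 chromosome 6, 54923942 to 54972674) measured 296, 131 and 114 in control libraries against 434, 515 and 247 in anti-CD73 libraries. Control replicate 1 lay above the lowest anti-CD73 library. The means were 180 ± 100 and 398 ± 137 (SD, n = 3 each), with a log2 difference of 1.21 (SE 0.41, adjusted p = 0.233), or 1.64 without that control (adjusted p = 0.00492). Nod2 measured 1151, 770 and 867 in control libraries against 924, 900 and 964 in anti-CD73 libraries. Its log2 difference was 0.020 (SE 0.16, adjusted p = 0.968) and 0.18 without control replicate 1 (adjusted p = 0.182), and the sign turned without control replicate 2 (-0.10). The difference between these 2 genes was not tested.

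All 4 tested inflammasome sensors lay higher after anti-CD73, with a median log2 difference of 1.41. Without control replicate 1, the library singled out by such values, all 4 were called higher, against 11.9% of all genes. Nlrp3, which senses potassium efflux and many kinds of damage (ENSMUSG00000032691; mm10 chromosome 11, 59541569 to 59566955), measured 1828, 502 and 452 in control libraries against 1504, 1454 and 1167 in anti-CD73 libraries. Control replicate 1 was its highest library. The log2 difference was 0.87 (SE 0.49, adjusted p = 0.438) with all libraries and 1.52 (SE 0.12, adjusted p = 0.000935) without that control. Nlrc4, which is set off by flagellin and secretion needle proteins through Naip proteins, measured 60.9, 34.2 and 18.0 in control libraries against 88.3, 90.0 and 48.3 in anti-CD73 libraries. Its log2 difference was 1.09 (SE 0.46, adjusted p = 0.32), or 1.51 without control replicate 1 (adjusted p = 0.0198). Without control replicate 3, Nlrp3 had 0.51 and Nlrc4 0.66.

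Nlrp1b, the sensor that anthrax lethal factor cleaves in some mouse strains, had few reads but groups that did not overlap. It had 10, 4 and 3 reads in the controls, or 10.2, 5.07 and 2.25 normalized counts, and 23, 21 and 14 reads after anti-CD73, or 21.4, 22.2 and 14.4 normalized counts. Every anti-CD73 library lay above every control, and the log2 difference was 1.73 (SE 0.52, adjusted p = 0.199), or 2.17 without control replicate 1 (adjusted p = 0.0135). Its paralog Nlrp1a had 10, 1 and 2 reads in the controls and 17, 23 and 8 after anti-CD73 (log2 difference 1.99, SE 0.73, adjusted p = 0.265). The groups overlapped through control replicate 1. The pseudogene Nlrp1c-ps had 7, 3 and 3 reads and 12, 10 and 8, and was below the filter. These 3 related genes may share reads, which makes their separate levels uncertain. Nlrp6 and Nlrp10 had 0 to 3 reads per library.

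Of the NOD-like receptors known as regulators, Nlrp12 was the one tested gene with its lowest library in control replicate 1 and groups that did not overlap. Nlrp12, which restrains NF-kB signalling in myeloid cells, measured 11.2, 25.3 and 34.4 in control libraries against 36.3, 54.0 and 36.0 in anti-CD73 libraries. The log2 difference was 0.91 (SE 0.43, adjusted p = 0.36), and it was smaller without control replicate 1, at 0.47 (SE 0.30, adjusted p = 0.287), the opposite of most genes here. Nlrc5, the transactivator of class I antigen presentation genes, measured 2296, 1152 and 1717 in control libraries against 2113, 2528 and 1978 in anti-CD73 libraries (log2 difference 0.41, SE 0.24, adjusted p = 0.464; 0.64 and 0.0248 without control replicate 1, and 0.14 without control replicate 2). Nlrc3, which dampens Toll-like receptor and T cell signalling, had a log2 difference of -0.30 (SE 0.36, adjusted p = 0.72), and its sign turned without anti-CD73 replicate 3 (0.046).

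The NOD-like receptors best known from egg and embryo were mostly without reads. Of these 12 genes, 8 had no read in any library, and 0 of 76940337 reads allows up to 3 reads (counting error only). Nlrp4c was the exception, at 254, 207 and 228 normalized counts in control libraries against 193, 191 and 240 in anti-CD73 libraries. Its groups overlapped, with a log2 difference of -0.15 (SE 0.16, adjusted p = 0.709). Nlrp4e had -0.058 (SE 0.47), with a sign that turned with erythroid genes left out (0.0075) and without control replicate 1 (0.39), and reads of the Nlrp4 copies may be split between them.

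**Figure D2:**
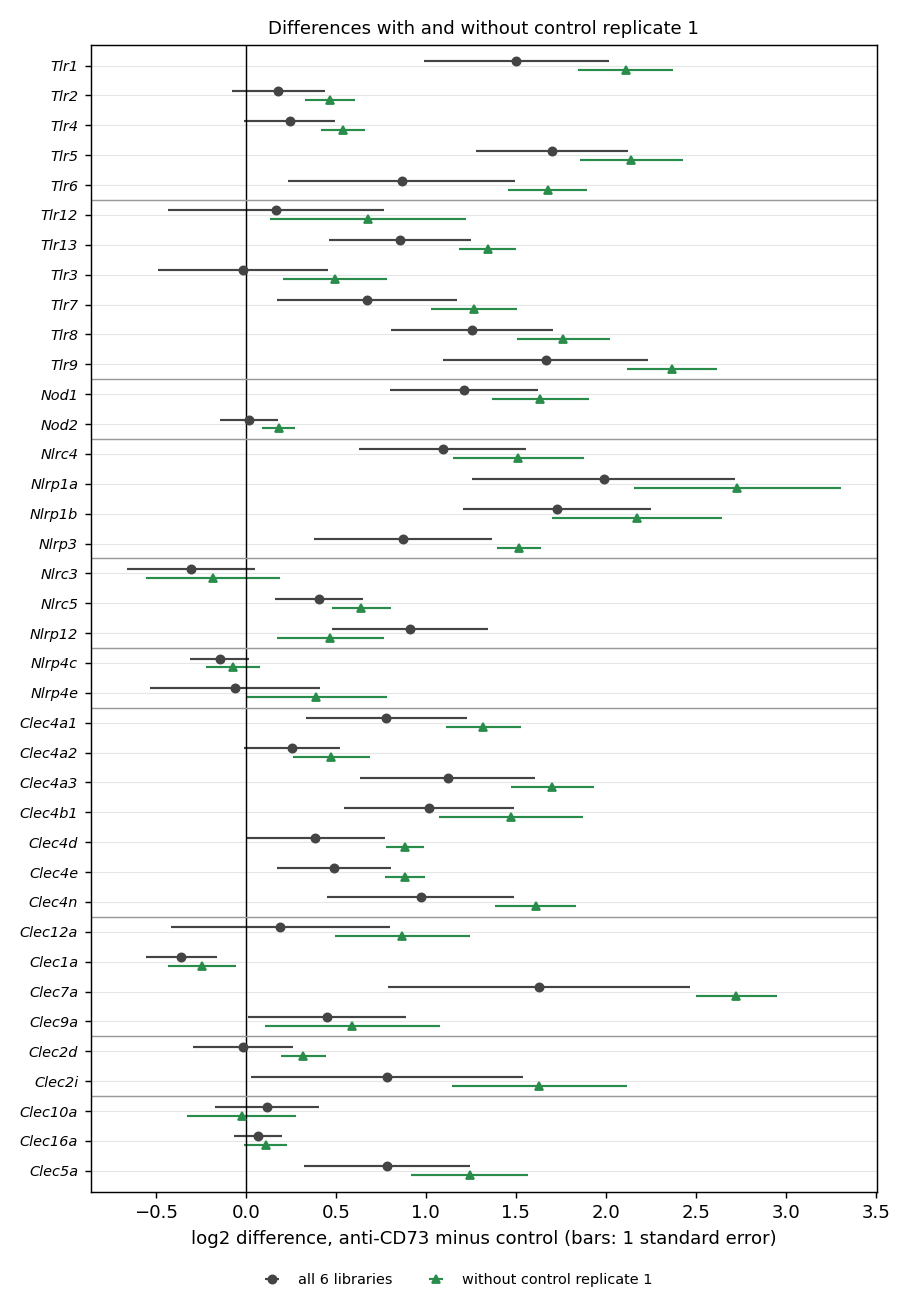
Log2 difference between anti-CD73 and control libraries for the same 38 genes, on the scale of log2(normalized count + 1), with bars of 1 SE. Circles use all 6 libraries and triangles leave out control replicate 1. The triangles lie to the right of the circles for most genes, and Clec7a goes from 1.63 to 2.73, while Nlrp12 goes from 0.91 to 0.47.

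Of the Clec4 lectins, 9 lie in the dectin-2 cluster on chromosome 6, and all 7 of these that were tested lay higher after anti-CD73, with a median log2 difference of 0.78. Without control replicate 1 the median was 1.32 and 6 of the 7 were called higher, against 11.9% of all genes. Clec4n, which encodes dectin-2, a receptor for fungal mannans (ENSMUSG00000023349; mm10 chromosome 6, 123229843 to 123247024), measured 964, 304 and 213 in control libraries against 786, 1019 and 591 in anti-CD73 libraries. Control replicate 1 lay inside the anti-CD73 range, as for Clec4a1 and Clec4a3. The log2 difference was 0.97 (SE 0.52, adjusted p = 0.416), or 1.61 without that control (SE 0.22, adjusted p = 0.00301) and 0.52 without control replicate 3.

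Clec4e, or Mincle, which binds mycobacterial cord factor and a nuclear protein released by dead cells, measured 4810, 2240 and 2009 in control libraries against 3885, 4486 and 3446 in anti-CD73 libraries. Its partner Clec4d measured 2186, 832 and 718 in control libraries against 1473, 1533 and 1295 in anti-CD73 libraries. For both genes control replicate 1 was the highest library, and the anti-CD73 libraries lay above the other controls. Their log2 differences were 0.49 (SE 0.32, adjusted p = 0.497) and 0.39 (SE 0.39, adjusted p = 0.668). Without control replicate 1 they were 0.88 (SE 0.11, adjusted p = 0.00253) and 0.89 (SE 0.11, adjusted p = 0.00207). Without control replicate 3 they were 0.25 and 0.084, and without control replicate 2 Clec4d had 0.19.

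The Clec4a genes are relatives of the inhibitory dendritic cell immunoreceptor. Clec4a3 measured 492, 174 and 124 in control libraries against 470, 636 and 366 in anti-CD73 libraries (log2 difference 1.12, SE 0.49, adjusted p = 0.325; 1.70 and 0.00296 without control replicate 1). Clec4a1 had 0.78 (SE 0.45, adjusted p = 0.444), or 1.32 without control replicate 1 (adjusted p = 0.00399). Clec4a2, which carries the inhibitory motif in its tail, measured 265, 210 and 136 in control libraries against 232, 281 and 200 in anti-CD73 libraries. It was the only tested gene of the cluster not called without control replicate 1 (log2 difference 0.47, adjusted p = 0.145), and whether it differs from Clec4a3 was not tested. Clec4b1 had 4 to 25 reads per library (log2 difference 1.02, SE 0.47, adjusted p = 0.354; 0.64 without control replicate 2). Without control replicate 3, Clec4a3 had 0.71, Clec4a1 0.42 and Clec4a2 -0.0073. These genes are close paralogs, so their separate levels are uncertain.

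In the neighbouring dectin-1 cluster, Clec7a had the largest log2 difference. Clec7a, which encodes dectin-1, the receptor for fungal beta-glucan (ENSMUSG00000079293; mm10 chromosome 6, 129461591 to 129472785), measured 2174, 240 and 204 in control libraries against 1807, 1733 and 1010 in anti-CD73 libraries. Control replicate 1 was the highest library of all, and the other controls were the lowest by a wide gap. The means were 873 ± 1127 and 1517 ± 440 (SD, n = 3 each), so the control SD exceeded the control mean. The log2 difference was 1.63 (SE 0.84, adjusted p = 0.396) with all libraries and 2.73 (SE 0.23, adjusted p = 0.000935) without control replicate 1. It was 1.02 without control replicate 3 and 0.83 by edgeR with all libraries. By DESeq2 it was 0.80, with no p-value given for this gene.

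Clec12a, an inhibitory receptor for uric acid crystals, measured 112, 24.1 and 29.2 in control libraries against 49.3, 78.4 and 30.8 in anti-CD73 libraries. Its log2 difference was 0.19 (SE 0.61, adjusted p = 0.911), and its sign turned by edgeR (-0.032). Clec1a, an endothelial and myeloid lectin, was the one tested gene for which every anti-CD73 library lay below every control, at 113, 88.7 and 88.3 against 67.0, 81.5 and 76.1 (log2 difference -0.36, SE 0.20, adjusted p = 0.427; -0.24 and 0.387 without control replicate 1). Clec9a, which binds actin of dead cells on cross-presenting dendritic cells, had 4 to 17 reads per library and a log2 difference of 0.45 (SE 0.44, adjusted p = 0.657), or 0.089 without control replicate 2. Xcr1, another marker of those cells, lay between 1.50 and 11.2 normalized counts. Clec1b, the podoplanin receptor of platelets, had 2 to 4 reads per library and was not tested.

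The remaining tested lectins are Clec5a, Clec2d, Clec2i, Clec10a and Clec16a. Clec5a, which signals with Tyrobp in myeloid cells, measured 155, 68.4 and 51.6 in control libraries against 165, 199 and 87.4 in anti-CD73 libraries (log2 difference 0.79, SE 0.46, adjusted p = 0.455; 1.24 and 0.0265 without control replicate 1, and 0.46 without control replicate 3). Clec2d, a ligand of inhibitory natural killer cell receptors, measured 681, 307 and 376 in control libraries against 409, 455 and 410 in anti-CD73 libraries. Its log2 difference of -0.014 (SE 0.28, adjusted p = 0.986) turned positive with TMM scaling (0.0060), with erythroid genes left out (0.055) and without control replicate 1 (0.32, adjusted p = 0.0996).

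Clec2i, of the same ligand family, had 44, 8 and 6 reads in the controls and 39, 15 and 21 after anti-CD73 (log2 difference 0.78, SE 0.76, adjusted p = 0.657; 1.63 without control replicate 1, 0.10 without control replicate 3 and 0.47 without anti-CD73 replicate 1). Clec10a, the galactose lectin of macrophages and dendritic cells, measured 18.3, 29.1 and 20.9 in control libraries against 25.1, 25.4 and 22.6 in anti-CD73 libraries, with a log2 difference of 0.12 (SE 0.29) that was -0.021 without control replicate 1 and 0.30 without control replicate 2. Clec16a, a protein of endosomes and mitophagy rather than a surface receptor, had the narrowest spread, at 255, 231 and 234 against 253, 257 and 243 (log2 difference 0.067, SE 0.13, adjusted p = 0.842). Of the 29 genes not tested, the secreted lectin Clec3b had 0 to 8 reads per library, the growth factor Clec11a 0 to 3 and the endothelial lectin Clec14a 0 to 1.

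Markers of several cell types also lay higher after anti-CD73, though limma called 0 of the macrophage, dendritic cell, neutrophil, T cell and endothelial markers. DESeq2 called 3 of 14 macrophage, 4 of 8 neutrophil and 1 of 8 dendritic cell markers tested, against 4.93% of all genes. It called 0 of 12 T cell and 1 of 4 endothelial markers. In the same order, groups did not overlap and lay higher for 6, 4, 2, 1 and 1 markers, against 11.5% of all genes. Summed over the 67 genes, normalized counts were 23700, 9897 and 9662 in the controls and 19820, 22350 and 16270 after anti-CD73. The 14 macrophage markers summed to 20430, 14020 and 11000 in the controls and to 26480, 30690 and 18790 after anti-CD73, and all 14 lay higher. The 10 dendritic cell markers summed to 5051, 1679 and 1659 and to 6854, 6081 and 3358, with 8 of 8 tested lying higher, and the 9 neutrophil markers to 5829, 7877 and 6796 and to 12390, 15160 and 8538, with 6 of 8 tested lying higher. Control replicate 1 thus had high macrophage and dendritic cell sums among the controls and the lowest neutrophil sum. Of the T cell markers, 12 of 12 lay higher (median log2 difference 0.68). Of the endothelial markers, 4 of 4 tested lay higher (median 1.06), and the 6 listed summed to 988, 554 and 434 in control libraries against 1234, 1513 and 920. The neutrophil marker Camp was at 0 in that library. The part of these cells in the receptor differences was not tested.

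Some receptors lay higher also when read against the macrophage markers of the same library. Tlr5 amounted to 0.298, 0.208 and 0.177% of the macrophage marker sum in the controls and to 0.471, 0.417 and 0.427% after anti-CD73, with no overlap. Nlrp1b, at few reads, was the other of the 38 genes for which this held, against 1.39% of all tested genes. In 7 of the 38 the share was lower after anti-CD73 with no overlap, against 32.7% of all tested genes, among them Tlr2 (4.88, 3.79 and 5.11% against 2.75, 2.97 and 3.47%), Tlr4 (3.23, 2.72 and 3.03% against 2.06, 1.79 and 2.47%) and Nod2 (5.63, 5.49 and 7.88% against 3.49, 2.93 and 5.13%). For Tlr9 the share was 2.50, 1.05 and 0.864% against 2.53, 2.52 and 2.37%, so that control replicate 1 matched the anti-CD73 libraries and the other controls lay lower. Against the neutrophil sum, 0 of the 38 genes were higher without overlap (0.334% of all genes) and 4 were lower (50.7%). Against the dendritic cell sum, 3 were higher (Tlr5, Nlrp1a and Nlrp1b, against 0.204% of all genes) and 8 were lower (10.3%). The marker sums themselves were mostly higher after anti-CD73, so a gene at an equal level takes a lower share. Nod2, for example, had group means of 929.5 normalized counts in the controls and 929.2 after anti-CD73. Against the macrophage sum, lower shares without overlap were less frequent among the 38 than over all genes. These shares were not tested.

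Many genes that carry the lectin signal had groups that did not overlap. Of the 16 genes of C-type lectin signalling, 14 lay higher (median log2 difference 0.69, against 0.0039 over all genes) and 9 had groups that did not overlap, against 11.5% of all genes, while 0 of the 16 C-type lectins tested were higher without overlap. The difference between these lists was not tested. None of the 16 passed with all 6 libraries by limma (0, with 10 at an unadjusted p under 0.05 against 8.69% of all genes), DESeq2 called 8 (4.93% of all genes), and limma called 11 higher without control replicate 1 (11.9% of all genes). Syk, the kinase that starts the signal, measured 1751, 1391 and 1103 in control libraries against 2557, 2720 and 1944 in anti-CD73 libraries (log2 difference 0.78, SE 0.20, adjusted p = 0.177). Card9, the adaptor downstream of Syk, stood at 30.5, 46.9 and 48.6 and at 79.0, 112 and 77.1 (log2 difference 1.08, SE 0.27, adjusted p = 0.173), with its lowest library in control replicate 1.

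Ptpn6, the phosphatase SHP-1 that inhibitory lectins recruit, measured 743, 684 and 742 in control libraries against 1518, 1656 and 1119 in anti-CD73 libraries. Its log2 difference was 0.97 (SE 0.16, adjusted p = 0.141), and control replicate 1 lay among the controls. Vav1 (0.51, SE 0.11, adjusted p = 0.152) and Prkcd (0.59, SE 0.13, adjusted p = 0.162), a guanine nucleotide exchange factor and the kinase that acts on Card9, also had groups that did not overlap. Those of the next partners of Card9 overlapped: Bcl10 had -0.12 (SE 0.12, adjusted p = 0.669) and Malt1 0.33 (SE 0.29, adjusted p = 0.623).

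**Figure D3:**
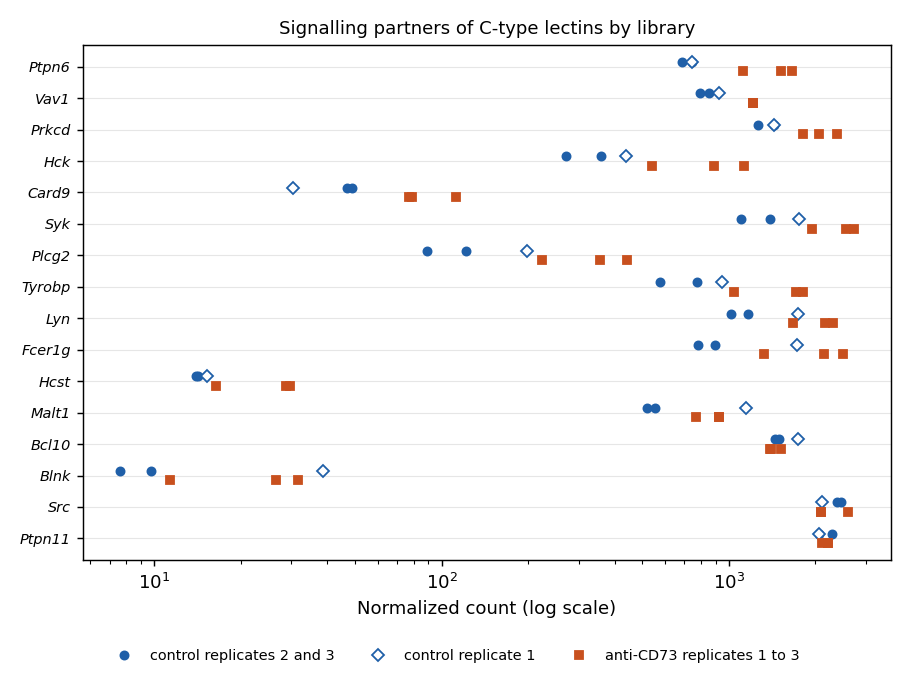
Normalized counts (log scale) of the 16 C-type lectin signalling genes in each library, ordered from the smallest p at the top. Symbols are as in the plot of the receptors by library. For 9 genes every square lies to the right of every control symbol, and control replicate 1 lies close to the other controls for Ptpn6, Vav1 and Prkcd.

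With all 6 libraries the other pathway lists had smaller medians than C-type lectin signalling, although without control replicate 1 the medians of the other lectin-fold receptors (0.94) and of the NF-kB genes (0.90) were as high (0.89). Of 20 Toll-like receptor adaptors and proximal kinases, 11 lay higher (median 0.14), 0 passed by limma (4 at an unadjusted p under 0.05) and 5 were called higher without control replicate 1, against 8.69% and 11.9% of all genes. In this list Ikbke, a kinase of the interferon branch, measured 268, 163 and 177 in control libraries against 425, 543 and 405 in anti-CD73 libraries (log2 difference 1.19, SE 0.22, adjusted p = 0.141). Irak3, an inhibitor of the pathway, had 0.88 (SE 0.25, adjusted p = 0.184) and Irak2 0.73 (SE 0.23, adjusted p = 0.206), while the common adaptor Myd88 had 0.20. All 3 of the genes with the smallest p had groups that did not overlap. Over the whole list, groups did not overlap for 4 genes higher and 4 lower, against 11.5% and 12.0% of all genes.

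Of 11 tested Toll-like receptor chaperones and co-receptors, 9 lay higher (median 0.29), 0 passed by limma (4 at an unadjusted p under 0.05) and 6 were called higher without control replicate 1, against 8.69% and 11.9% of all genes. Unc93b1, which carries the endosomal receptors to their compartment, measured 971, 859 and 874 in control libraries against 1585, 1913 and 1096 in anti-CD73 libraries (log2 difference 0.73, SE 0.20, adjusted p = 0.183). Control replicate 1 lay close to the other controls for this gene, and inside or above the anti-CD73 range for Tlr7 and Tlr9. Cd14, the lipopolysaccharide co-receptor and also in the macrophage list, had 0.69 (SE 0.22, adjusted p = 0.216). Ly86, the partner of the B cell receptor Cd180, had 1.28 (SE 0.41, adjusted p = 0.221).

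Of 18 inflammasome effectors, 15 lay higher (median 0.35), 0 passed by limma (3 higher and 1 lower at an unadjusted p under 0.05, against 8.69% and 6.82% of all genes), and 11 were called higher and 1 lower without control replicate 1, against 11.9% and 10.3%. Nek7, the kinase that Nlrp3 needs, was the one lower, at 1313, 1098 and 959 in the controls and 797, 841 and 852 after anti-CD73 (log2 difference -0.42, SE 0.14, adjusted p = 0.223). The sensor gene Mefv, which encodes pyrin, had 1.45 (SE 0.48, adjusted p = 0.223). The inflammasome adaptor gene Pycard had 0.85 (SE 0.29, adjusted p = 0.238), and groups did not overlap for either gene. In the whole list this held for 2 genes higher and 2 lower, Nek7 and Aim2, against 11.5% and 12.0% of all genes, so it was no more than the background. Il1b, the main product, measured 7385, 1818 and 1110 in control libraries against 7265, 7310 and 4585 in anti-CD73 libraries, so control replicate 1 was again at the anti-CD73 level.

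Of 16 genes of the NOD pathway, 12 lay higher (median 0.073), 0 passed by limma (2 at an unadjusted p under 0.05) and 3 were called higher without control replicate 1, against 8.69% and 11.9% of all genes. Slc15a3, a transporter that brings bacterial peptides out of endosomes, had the smallest p (log2 difference 1.09, SE 0.33, adjusted p = 0.197), followed by Ikbkb (0.35, SE 0.13) and Rnf31 (0.40, SE 0.18). Of 10 cytosolic RNA and DNA sensors, 6 lay higher (median 0.30), 0 passed by limma (2 at an unadjusted p under 0.05) and 6 were called higher without control replicate 1, against 8.69% and 11.9% of all genes. Dhx58 led them with 0.77 (SE 0.20, adjusted p = 0.178), followed by Zbp1 (1.29, SE 0.46), while the DNA sensor Aim2 had -0.24 (SE 0.12) and groups that did not overlap. Among the 10 sensors, groups did not overlap for 1 gene higher and 1 lower, against 11.5% and 12.0% of all genes.

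Of 19 tested receptors with a C-type lectin fold but other names, 17 lay higher (median 0.46), 0 passed by limma (2 at an unadjusted p under 0.05) and 8 were called higher without control replicate 1, against 8.69% and 11.9% of all genes. Cd72, a B cell and macrophage lectin, measured 244, 68.4 and 68.8 in control libraries against 402, 435 and 282 in anti-CD73 libraries (log2 difference 1.80, SE 0.48, adjusted p = 0.178). Cd93, a lectin-like receptor of endothelial and myeloid cells, had 1.02 (SE 0.44). Of 20 inflammatory genes that NF-kB induces, 11 lay higher (median 0.40), 0 passed by limma (1 higher and 2 lower at an unadjusted p under 0.05, against 8.69% and 6.82% of all genes) and 10 were called higher and 1 lower without control replicate 1, against 11.9% and 10.3%. Control replicate 1 was the highest of all 6 libraries for 17 of the 20, against 30.7% of all genes. Ier3 (-0.77, SE 0.20, adjusted p = 0.178) and Socs3 (-0.36, SE 0.14) lay lower, and Il12b had 2.36 (SE 0.90) from 0 to 20 reads per library.

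**Figure D4:**
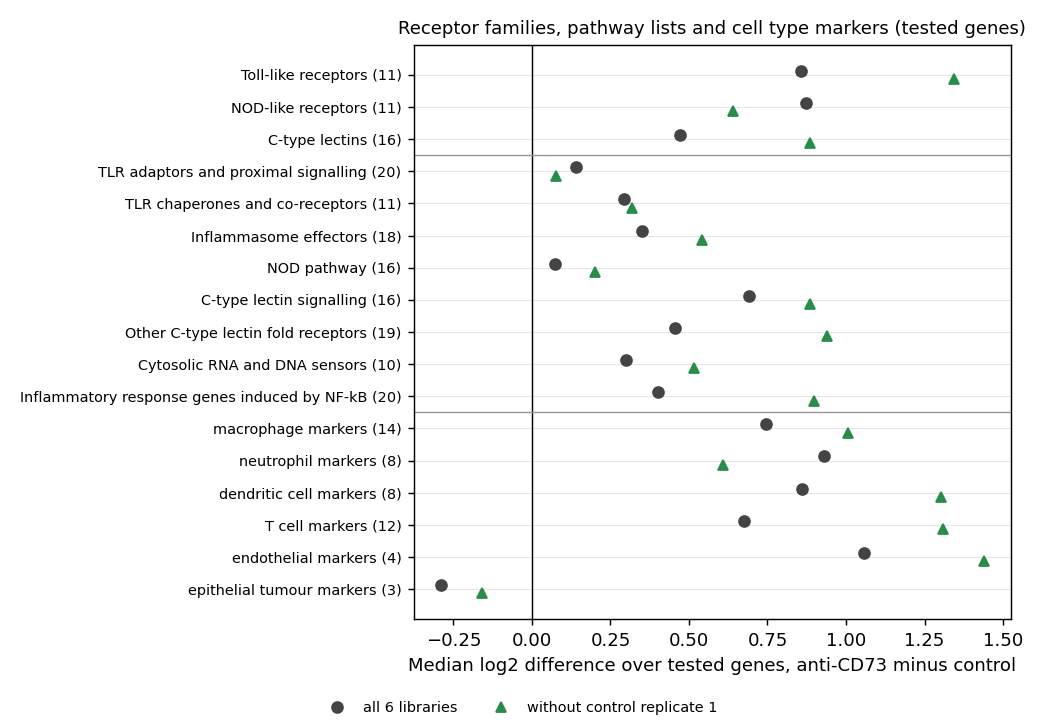
Median log2 difference between anti-CD73 and control libraries for the receptor families, the pathway lists and cell type markers, with the number of tested genes in brackets. Circles use all 6 libraries and triangles leave out control replicate 1. Without that control, Toll-like receptors go from 0.86 to 1.34, C-type lectins from 0.47 to 0.89 and NOD-like receptors from 0.87 to 0.64. Among the tested NOD-like receptors only Nlrp12 had a lower value without it (0.91 to 0.47), which moved the middle rank from Nlrp3 to Nlrc5. The Toll-like receptor adaptors and the NOD pathway stay at 0.20 or below.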

How the data were processed

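The deposited signal values are counts per gene that the authors normalized with DESeq, per the labels. The submitters' processing notes name Bowtie 0.12.7 and mm10 but give neither a role. The counter, annotation, strandedness and handling of reads with several matches: not given in the sources used here. Per the labels' protocols, cells were kept in Trizol and an NEBNext Ultra II kit was used. Columns were matched to samples by description, and groups and replicate numbers came from titles. The labels name no batch.

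Every value was a whole multiple of 1 read: 100% came out whole within 0.01, which gave 10180624 to 17161679 reads per library. Groups were compared with limma-trend (limma 3.58.1, R 4.3.3), two-sided, on log2(normalized count + 1) of the 12262 genes with a mean of at least 10, with Benjamini-Hochberg adjustment over all of them and a threshold of 0.05. This scale understates changes of low genes. Median differences are descriptions. Alternatives included edgeR 4.0.16 and DESeq2 1.42.0 on the recovered reads, other pseudocounts, filters and scalings, blocks and leaving out each library. The fits were tested on simulated counts. These had the same spread for all genes and no library that differed from its group. That test therefore does not cover a library such as control replicate 1.

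The genes and lists were chosen with earlier results of these data known. Named genes were those with the 10 smallest p in each direction, a fixed panel, and the 3 smallest p of each pathway list. A gene that this rule names in the list of other lectin-fold receptors is not reported here. Tlr6, Tlr12, Nlrp12, Clec2i, Clec4b1, Clec16a, Xcr1, Camp, Il1b, Myd88, Syk, Card9, Bcl10 and Malt1, and the genes outside the panel given as below the filter, were added after their values were seen. Coordinates and promoters are from RefSeq, GRCm38.p6, the assembly of mm10. Levels of single genes were not compared with each other, since transcript lengths were not used. The marker sums set side by side were not corrected for length either. Figures were drawn with matplotlib 3.10.9.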

Additional observations from a re-analysis of the deposited data

How the results depend on the processing

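The count of receptor and lectin genes called was 0 with pseudocounts of 0.5 and 8, with no filter, with a mean of at least 50, with TMM factors, with erythroid genes left out and with edgeR. It was 1 with DESeq2, and 592 genes were called in all. With each library left out it ranged from 0 to 24, and from 0 to 2724 over all genes, and the calls came only without control replicate 1, where edgeR called 24 and 2703 and DESeq2 23 and 2679, in fits added after the data were seen. Whether the numbers in the titles or descriptions pair the samples is not stated in the labels. Correlations of deviations from the group means were 0.189, -0.096 and 0.262 for the pairs by title number. By description number they were -0.157 (control replicate 2 with anti-CD73 replicate 1) and 0.262 (control replicate 3 with anti-CD73 replicate 3). With 3 libraries per group these values cannot settle the pairing. A replicate block by title number called 0 genes. A replicate block by description number called 22 receptor genes and 1780 in all; in it control replicate 1 and anti-CD73 replicate 2 have no partner and do not bear on the difference. The median of the 38 genes was 0.41 by edgeR and 0.40 by DESeq2, which compare group means, against 0.73. The NOD-like receptor median was 0.28 with no filter, where genes of few reads enter. Signs were the same in the fit of all 6 libraries and without each library for 27 genes higher and 2 lower, and 9 changed sign. Reversals in genes that limma did not call with all libraries or without control replicate 1, some of them given above, were these. With the block by description number: Clec10a -0.051, Clec2d 0.27, Nlrp4e 0.17 and Tlr3 0.24. With erythroid genes left out: Clec2d 0.055, Nlrp4e 0.0075 and Tlr3 0.055. With TMM factors: Clec2d 0.0060 and Tlr3 0.0062. By edgeR and DESeq2, Clec12a had -0.032 and -0.053. With libraries left out, values ranged from -0.021 to 0.301 for Clec10a, from -0.21 to 0.87 for Clec12a, from -0.26 to 0.32 for Clec2d, from -0.0073 to 0.47 for Clec4a2, from -0.496 to 0.046 for Nlrc3, from -0.41 to 0.39 for Nlrp4e, from -0.105 to 0.185 for Nod2, from -0.22 to 0.68 for Tlr12 and from -0.334 to 0.497 for Tlr3. By edgeR and DESeq2 without control replicate 1, Clec2d had 0.32 and 0.32, Nlrp4e 0.40 and 0.43, Tlr3 0.57 and 0.58, and Clec10a -0.0064 by DESeq2. The causes were not tested. Genes with a mean under 10 normalized counts could not be compared at this depth.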
